A study of Mus musculus with 3 samples.

Results

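The genes described here encode 7 receptors and receptor-like proteins of B cells: Fcgr2b, Fcmr, Fcrla, Fcrl1, Fcrl5, Cd72 and Siglecg. They were found in the deposited gene table by gene name and are 7 of its 27088 genes. The rule uses no measured value, but it was set with earlier results of these data known. All 7 were found, and all 7 passed the filter on low values, which required at least 1 FPKM in either library and a value above 0 in each, and kept 12433 genes. FPKM is the number of fragments per kilobase of gene and per 1000000 fragments of the library.

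B cells are activated when antigen binds the B cell receptor, and several surface proteins dampen that signal. Many of them carry tyrosine motifs (ITIMs) that, once phosphorylated by the kinase Lyn, recruit the phosphatases encoded by Ptpn6 and Inpp5d. Fc receptors bind the constant part of antibodies, so that antibody already made can feed back on the cell, whereas Cd72 and Siglecg bind other ligands and help set the threshold for activation. Not all of the 7 are inhibitory: Fcrl1 is known as a co-activating protein, and Fcrla stays inside the cell.

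The study asked how SJMHE1, a peptide of the parasitic worm Schistosoma japonicum, acts in mice with allergic rhinitis, and splenic B cells were sorted by flow cytometry and sequenced. All animals were female BALB/c mice, 6 weeks old when the experiment began and labelled as 13 weeks old at collection. In both groups compared here, PBS and SJMHE1, the mice received 10 µg ovalbumin with 2 mg aluminum hydroxide into the peritoneum on days 0, 7 and 14, and 100 µg ovalbumin into the nose daily from day 21 to day 27 and again from day 29 to day 35. On days 0, 14 and 28 the PBS mice were injected under the skin with PBS and the SJMHE1 mice with 10 µg peptide emulsified in incomplete Freund's adjuvant, and collection was on day 36. The PBS injections held no adjuvant, so the effects of peptide and adjuvant cannot be told apart. The healthy Control group was not analysed here.

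Each group is 1 library made from a pool of 3 mice. Where a pair of values is given, the PBS library comes first. The differences below therefore have no replicate check, and no p-value was computed. The intervals are at the 95% level, come from the counts alone and cover counting error only, not the spread between mice. The depth was 48267168 counts for PBS and 51280237 for SJMHE1, so a gene without a count could still be present at up to 0.0622 or 0.0585 counts in 1000000, the level of 3 counts. In bulk RNA, fewer cells of a type and less RNA per cell cannot be told apart. The B cell identity of the libraries was seen in the 12 listed B cell markers, whose FPKM values ranged from 22.6 to 835 under PBS and from 20.5 to 835 under SJMHE1.

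In both libraries the 7 genes stood in the same order of FPKM, with Fcmr the highest, then Cd72, Fcrla, Siglecg, Fcrl1 and Fcgr2b, and Fcrl5 the lowest. The gap from the highest to the lowest level was 28.5-fold under PBS and 32.5-fold under SJMHE1. Fcmr alone was 3.32-fold above the next gene in the PBS library, and Fcgr2b and Fcrl5 lay well below the other 5, with a step of 3.55-fold from Fcrl1 down to Fcgr2b. The only neighbours in this order whose counting intervals overlapped were Cd72 and Fcrla in the PBS library, at 128 and 127 FPKM. In the SJMHE1 library Cd72 stood 1.19-fold above Fcrla, and no neighbours overlapped. Together the 7 genes summed to 903 FPKM under PBS and 946 under SJMHE1, and they took 0.270% and 0.287% of the counts.

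**Figure D1:**
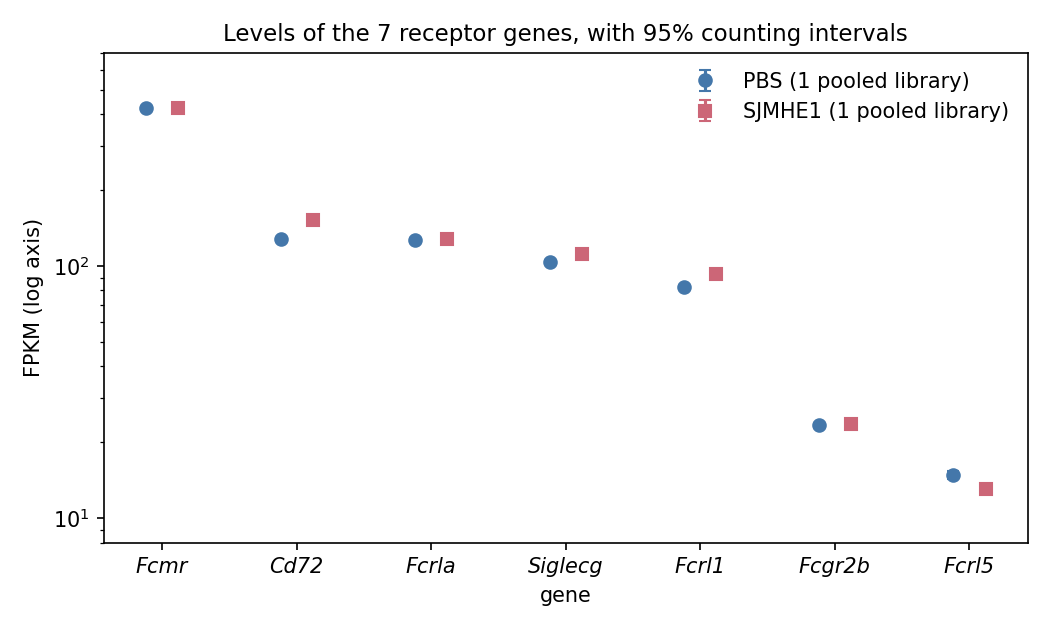
Level of each receptor gene (FPKM, log axis) in the PBS library (blue circles) and the SJMHE1 library (red squares), 1 pooled library each, with bars for the 95% Poisson interval of the count, mostly smaller than the symbols. Fcmr stands at 423 and 425 FPKM, the 4 genes from Cd72 to Fcrl1 between 82.8 and 152, and Fcgr2b and Fcrl5 between 13.1 and 23.6.

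The order depends in part on the gene length used. For every receptor gene, short or long, the FPKM values implied a length somewhat above the sum of all annotated exons. In the PBS library it was 1974 bases for Fcmr, against 1736 bases of exons over all isoforms. For Fcgr2b it was 6586 bases, against 5790 bases of exons and 3544 bases in the transcript with the longest coding sequence. When the counts, scaled to 1000000 per library, were divided by the length of that single transcript, a scale added after the data were examined, Fcrla fell from the third place to the fifth, at 150 scaled counts per kilobase in the PBS library, below Siglecg at 222 and Fcrl1 at 203. Fcmr remained the highest on this scale, at 522, and Fcrl5 the lowest, at 24.0.

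Between the SJMHE1 and PBS libraries the 7 genes differed little. None was past a 2-fold difference (absolute log2 ratio above 1), and none was past an absolute log2 ratio of 0.5. Among all 12433 genes compared, 6.0% were past the first threshold and 17.1% past the second. The log2 FPKM ratios of the 7, SJMHE1 to PBS, ran from -0.18 to 0.25 with a median of 0.018, where all genes compared had a median of -0.013 and a 5th to 95th percentile range of -0.82 to 0.64. For the 4143 genes with at least 10 FPKM in both libraries, which includes all 7, that range was -0.38 to 0.34. The ratio was above 0 for 6 of the 7 genes and below 0 for Fcrl5. Among all 12433 genes compared, it was above 0 for 5929 and below 0 for 6453. The counting interval lay wholly above 0 for 3 genes (Cd72, Fcrl1 and Siglecg) and wholly below 0 for 1 (Fcrl5), and it held 0 for Fcgr2b, Fcmr and Fcrla. Over all genes compared, 31.0% had an interval wholly above 0 and 34.5% wholly below. This split depends on the scale: after rescaling to equal FPKM sums, 6 of the 7 intervals lay wholly above 0 and that of Fcrl5 wholly below, with 43.2% and 24.0% over all genes.

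**Figure D2:**
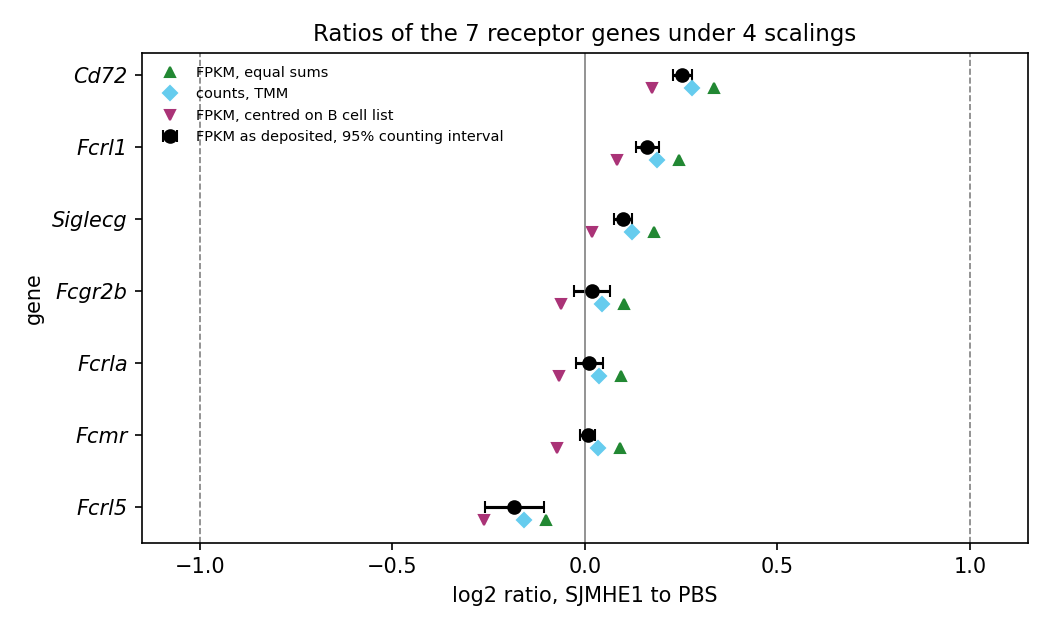
The log2 ratio of each receptor gene, SJMHE1 to PBS, from the deposited FPKM values with the 95% counting interval (black), after rescaling to equal FPKM sums (green triangles), from counts scaled by the trimmed mean of ratios, TMM (light blue diamonds) and after centring on the median of 12 B cell markers (purple triangles); dashed lines mark 2-fold. Cd72 is the highest, at 0.25, and Fcrl5 the lowest, at -0.18, under the deposited scale, and Fcgr2b, Fcmr and Fcrla pass to the left of 0 when centred on the B cell markers.

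Fcgr2b encodes the inhibitory receptor for IgG, the main Fc gamma receptor of B cells. It lies on the minus strand at chr1:170958617-170976547 (GRCm38), with 8 exons in the transcript with the longest coding sequence. Its level was 23.3 FPKM under PBS and 23.6 under SJMHE1, from 7410 and 7944 counts. The log2 ratio was 0.018 (-0.027 to 0.064), and 91.3% of the 4143 abundant genes had a larger difference in either direction.

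Part of the sequence of Fcgr2b is shared with a close relative. Over all its transcripts, 249 of 5685 stretches of 50 bases (4.38%) occur in another gene. Of the 971 stretches of 50 bases in its coding sequence, 166 (17.1%) also occur in Fcgr3, the activating IgG receptor of myeloid and NK cells. The longest run that the coding sequences share is 129 bases and joins exons 3 and 4 in both genes, at chr1:170966674-170968081 for Fcgr2b and chr1:171054167-171057792 for Fcgr3, minus strand, with an intron inside each interval. It is shown because a read that falls inside it can be assigned to either gene, with the 102 bases of exon 3 in lower case and the 27 bases of exon 4 in capitals (GENCODE M21 transcripts).
Fcgr2b and Fcgr3, shared run: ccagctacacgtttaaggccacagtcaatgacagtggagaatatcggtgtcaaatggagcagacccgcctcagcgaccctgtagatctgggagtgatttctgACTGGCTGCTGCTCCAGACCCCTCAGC
Fcgr3 itself was counted 263 times in the PBS library and 140 times in the SJMHE1 library, 2.75 and 1.38 FPKM. When the counts of both genes were summed, an alternative added after the data were examined, the log2 ratio was -0.0067, so the sign for Fcgr2b turned while the size stayed near 0. An antisense gene, Gm38204, overlaps 155 of the 5790 exon bases of Fcgr2b, with 11 counts under PBS and 0 under SJMHE1.

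Fcmr encodes the receptor for the constant part of IgM, and lies on the plus strand at chr1:130865669-130880791. It was the most abundant of the 7, at 423 FPKM under PBS and 425 under SJMHE1, from 40287 and 42881 counts. Its place among all genes ordered by FPKM was 90 under PBS and 89 under SJMHE1. The log2 ratio was 0.0079 (-0.012 to 0.028), the smallest difference of the 7.

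Fcrla encodes a soluble Fc receptor-like protein held inside the B cell, where it binds immunoglobulin. It lies beside Fcgr2b on the same strand at chr1:170917576-170927583, with 31033 bases between the genes. The level was 127 FPKM under PBS and 128 under SJMHE1, from 12174 and 12992 counts, and the log2 ratio was 0.012 (-0.024 to 0.048). These neighbours thus stood apart in level, while the counting intervals of their ratios overlapped and both held 0. Fcrlb, the relative of Fcrla that lies 4634 bases away on its other side, was at 0.33 and 0.66 FPKM, from 23 and 49 counts.

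Fcrl1 and Fcrl5 lie side by side on the plus strand of chromosome 3, at chr3:87376387-87402934 and chr3:87435773-87500678, with 32838 bases between them. Fcrl1, whose protein has activating tyrosine motifs, was at 82.8 FPKM under PBS and 92.7 under SJMHE1, from 16187 and 19175 counts. Its level was 11.9% higher in the SJMHE1 library, with a log2 ratio of 0.16 (0.13 to 0.19). Fcrl5, a receptor with both inhibitory and activating motifs that is known from marginal zone and B-1 cells, was at 14.8 FPKM under PBS and 13.1 under SJMHE1.
The counts of Fcrl5 were 2835 and 2642, and its log2 ratio was -0.18 (-0.26 to -0.11). It was the only one of the 7 that was lower in the SJMHE1 library, and its interval did not overlap that of its neighbour Fcrl1. Such a size was common: 35.2% of the 4143 abundant genes had a larger difference than Fcrl5 and 40.3% a larger one than Fcrl1. No stretch of 50 bases in the transcripts of Fcrl1 or Fcrl5, nor in those of Fcmr, Fcrla or Cd72, was found in another gene.

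The B cell subsets known for Fcrl5 were also read by marker lists. All 9 markers listed for B-1 cells, innate-like B cells, had a ratio below 0, with a median of -0.79. Their summed level was 57.1 FPKM under PBS and 38.1 under SJMHE1. The 2 past 2-fold were Cd5 (log2 ratio -1.39), which is also a gene of T cells, and Ctla4 (-1.47). The T cell markers described below had a median of -1.96, and the part of T cells in the B-1 list was not tested. Of the 9 marginal zone markers, 5 were below 0 and 4 above, with a median of -0.0083 and summed levels of 453 and 493 FPKM. The higher sum rested on Cr2, since the other 8 markers summed to 316 and 275 FPKM. No marker of either list was at 0 counts. Siglecg, which is also known from B-1 cells, had a ratio above 0 beside the same B-1 markers. The part of B-1 and marginal zone cells in the values of Fcrl5 and Siglecg was not tested.

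Cd72 encodes a C-type lectin-like receptor with an ITIM that binds the semaphorin Sema4d, and lies on the minus strand at chr4:43446462-43454628. It had the largest difference of the 7: 128 FPKM under PBS and 152 under SJMHE1, from 23955 and 30214 counts. The level was 19.1% higher in the SJMHE1 library, with a log2 ratio of 0.25 (0.23 to 0.28), and its place among all genes moved from 321 to 248. Even so, 9.0% of the 4143 abundant genes had a higher ratio and 21.7% a larger difference in either direction.
The gene Tesk1 on the opposite strand overlaps 1423 of the 3422 exon bases of Cd72. Tesk1 had 1821 counts under PBS and 1798 under SJMHE1, far fewer than Cd72, and whether the counting used strand is not given in the sources used here. Sema4d, the ligand of Cd72, was at 23.3 and 26.7 FPKM in the same cells, with a log2 ratio of 0.20.

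Siglecg encodes a lectin that binds sialic acid and restrains calcium signaling, above all in B-1 cells, and lies on the plus strand at chr7:43408204-43418358. Its level was 104 FPKM under PBS and 112 under SJMHE1, from 27495 and 31150 counts. The level was 7.02% higher in the SJMHE1 library, with a log2 ratio of 0.098 (0.074 to 0.12). This placed Siglecg among ordinary genes of its abundance, since 60.1% of the 4143 had a larger difference. Over all its transcripts, 228 of 5090 stretches of 50 bases (4.48%) occur in another gene, a share close to that of Fcgr2b. Of these, 217 occur in the gene Gm29791, which had 20 and 60 counts.

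Compared with each other, 18 of the 21 pairs of the 7 genes had ratios with counting intervals that did not overlap. The share was not computed for pairs of other genes, and intervals from counting error alone are narrow at these counts. The count of pairs therefore does not set the 7 genes apart from others. The 3 pairs that overlapped were those among Fcgr2b, Fcmr and Fcrla, whose ratios lay nearest to 0. The signs of these 3 genes rested on the scale. Under every planned scaling the 6 genes above 0 and Fcrl5 below 0 kept their signs. When the ratios were centred on the median of the 12 B cell markers (0.079), an alternative added after the data were examined, Fcgr2b was at -0.061, Fcmr at -0.071 and Fcrla at -0.068, and the intervals of these 3 and of Fcrl5 lay wholly below 0, as did 46.3% of those of all genes. Cd72 and Fcrl1 stayed above 0 with their intervals on that scale, at 0.17 and 0.083. Siglecg, at 0.019 (-0.0049 to 0.042), then had an interval that held 0.

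The other inhibitory receptors of immune cells, 14 genes, served as a comparison. Of these, 8 passed the filter on low values, with a median log2 ratio of -0.11, and 2 were past 2-fold, both lower in the SJMHE1 library. These were Cd5, a scavenger receptor-like protein of T and B-1 cells (1.94 and 0.74 FPKM, log2 ratio -1.39), and Sit1, an adaptor mostly of T cells (5.58 and 2.38 FPKM, log2 ratio -1.23). The most abundant gene was Cd22, the other sialic acid-binding ITIM receptor of B cells, at 267 FPKM under PBS and 288 under SJMHE1, with a ratio of 0.11 (0.092 to 0.12) that overlapped that of Siglecg. The highest ratio among the genes that passed the filter was that of Ceacam1, an ITIM adhesion receptor, at 0.33.
All 10 listed T cell markers had ratios below 0, 9 of them past 2-fold, and none was at 0 counts. Their summed levels were 57.5 FPKM under PBS and 33.2 under SJMHE1. Without Lck, the most abundant of them, the sums were 29.5 and 7.97 FPKM. The part of T cells in the values of Cd5 and Sit1 was not tested.

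Among the 13 enzymes and adaptors through which such receptors signal, none was past 2-fold and the median was -0.032. Ptpn6, the tyrosine phosphatase recruited by the ITIMs of Cd72, Siglecg and Cd22, was the most abundant and had the highest ratio, at 211 FPKM under PBS and 264 under SJMHE1 (log2 ratio 0.32, 0.30 to 0.34). The ratio of Ptpn6 was thus above that of each of the 7 receptors. Lyn, the kinase that phosphorylates ITIMs, was at 64.7 and 69.8 FPKM, and Inpp5d, the lipid phosphatase used by Fcgr2b, at 38.2 and 40.1. The lowest ratio was that of Csk, an inhibitor of Src family kinases, at -0.10.

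The other Fc receptors, 12 genes, had 7 that passed the filter and a median of -0.013. The low-affinity IgE receptor Fcer2a was the most abundant, at 262 and 260 FPKM, and its ratio of -0.013 (-0.032 to 0.0056) was as close to 0 as those of Fcgr2b, Fcmr and Fcrla. One gene was past 2-fold: Fcgr4, an activating IgG receptor of myeloid cells, was at 0.91 and 1.91 FPKM from 63 and 140 counts (log2 ratio 1.07). Fcgr3 had the lowest ratio among the genes that passed the filter, at -0.99 (-1.30 to -0.69). Fcamr, a receptor for IgA and IgM, had the highest ratio among genes with at least 1 FPKM in both libraries, at 0.37. Of the activating IgG receptors that passed the filter, then, Fcgr4 was higher and Fcgr3 lower, both at under 3 FPKM, beside 23.3 and 23.6 FPKM for the inhibitory Fcgr2b.
The 8 macrophage markers that passed the filter were also split, with 4 above and 4 below 0, 2 of them past 2-fold upwards (C1qb, C1qc) and 1 downwards (Lyz2). The summed level of all 11 was 116 FPKM under PBS and 59.9 under SJMHE1, most of the difference being that of Lyz2, without which the other 10 summed to 27.0 and 22.5. None was at 0 counts. The part of myeloid cells in the values of Fcgr3 and Fcgr4 was not tested.

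The ligands that B cells themselves make were read from the same libraries. Of 7 listed ligand genes, 1 was past 2-fold: Ighg1, the constant region of IgG1 and so of a ligand of Fcgr2b, was at 136 FPKM under PBS and 45.7 under SJMHE1 (log2 ratio -1.57). Ighm, the constant region of IgM and the ligand of Fcmr, was at 4116 and 4284 FPKM, with a ratio of 0.058. The other listed constant-region genes of IgG, Ighg2b, Ighg2c and Ighg3, had ratios of -0.23, -0.86 and -0.13, none past 2-fold. The transcripts of both receptors thus stayed near a ratio of 0. Beside them, Ighg1 differed more than 2-fold and the other listed constant-region genes did not. Plasma cells are a known source of Ighg1, and of their 8 markers 6 had a ratio below 0, with a median of -0.29, 1 of them (Tnfrsf17) past 2-fold, and summed levels of 634 and 533 FPKM. Of 9 germinal centre markers, 8 were below 0 and 4 past 2-fold, with a median of -0.79. Their summed levels were 54.7 and 38.8 FPKM, or 43.6 and 25.3 without Bcl6. The part of these cells in the level of Ighg1 was not tested.

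Sialic acid, the ligand of Siglecg and Cd22, is made and attached by 10 listed genes. None was past 2-fold, 8 had a ratio below 0, and the median was -0.14. St6gal1, the transferase that makes the linkage bound by Cd22, was the most abundant, at 71.3 FPKM under PBS and 58.3 under SJMHE1 (log2 ratio -0.29, -0.32 to -0.26). The lowest ratio was that of the transferase St3gal4, at -0.49, and the highest that of the transporter Slc35a1, at 0.22. Among the 7 other sialic acid-binding lectins, 4 passed the filter, with a median of -0.55, and Siglech, a marker of plasmacytoid dendritic cells, was past 2-fold, at 2.14 and 0.39 FPKM. Siglecg and Cd22, the members of that family that B cells express at over 100 FPKM, were both above 0. Of the dendritic cell markers, 4 of 9 passed the filter and all 4 had a ratio below 0. Of those that did not pass, Zbtb46 was above 0 (log2 ratio 0.56) and the others were below. The summed levels were 23.9 and 17.8 FPKM over the list, or 9.30 and 4.51 without Bst2, and no marker was at 0 counts. The part of dendritic cells in the value of Siglech was not tested.

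Coreceptors and related proteins that promote B cell activation were read as a counterpart. All 6 listed genes had a ratio above 0, none past 2-fold, with a median of 0.26, which is above the ratio of every one of the 7 receptors. Cr2, a complement receptor, was at 136 FPKM under PBS and 218 under SJMHE1 (log2 ratio 0.68, 0.67 to 0.69). The lowest ratio was that of Cd40, at 0.090. Cr2 is also on the marginal zone list, where S1pr3 had a ratio of 0.59 and Plac8 one of -0.54.

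**Figure D3:**
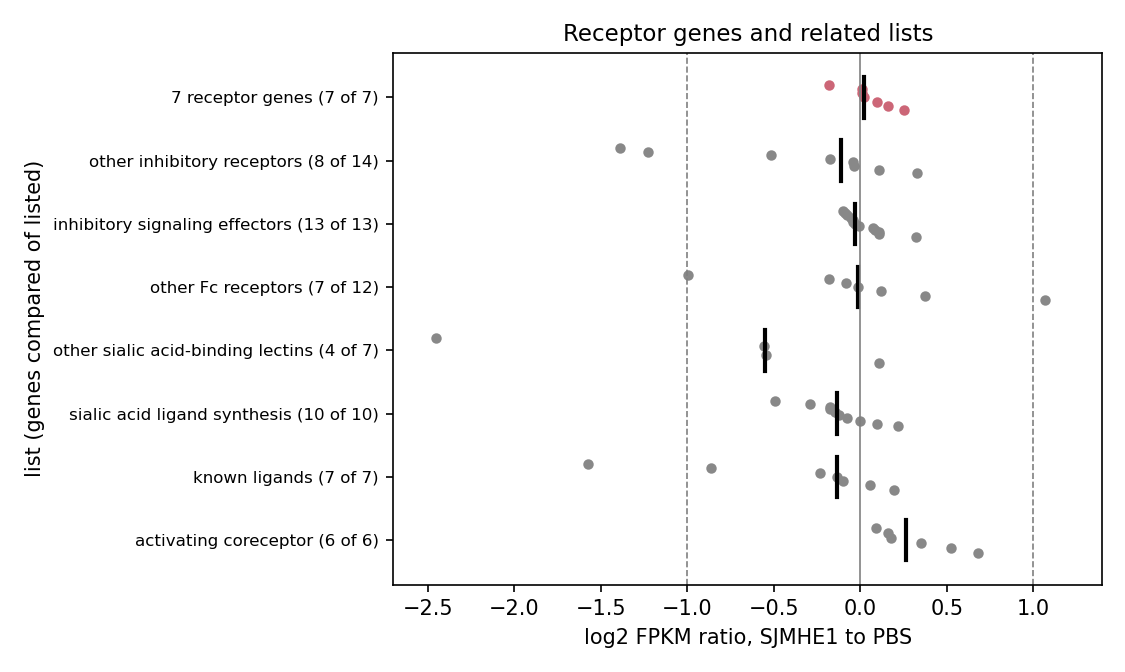
The log2 FPKM ratio, SJMHE1 to PBS, of each gene of the 7 receptor genes (red) and of related lists (grey) that passed the filter on low values, with a black bar at the list's median and dashed lines at 2-fold. The 7 receptors lie between -0.18 and 0.25, and the lists of inhibitory signaling effectors (-0.10 to 0.32) and activating coreceptors (0.090 to 0.68) also hold no gene past 2-fold, nor does that of sialic acid ligand synthesis (-0.49 to 0.22), while the remaining 4 lists each hold at least 1.

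The markers of the other cells that a spleen sort can hold were read for all 7 genes together. The lists of follicular B cells (6 genes) and B cells (12 genes) had no gene past 2-fold and medians of 0.035 and 0.079. The NK cell list had 4 of 7 genes passing the filter, all below 0 and 3 past 2-fold, and the mast cell and basophil list had 2 of 7, 1 of them past 2-fold. Among 8 neutrophil markers none was past 2-fold and 5 were below 0, although their summed level was 419 FPKM under PBS and 494 under SJMHE1 (223 and 228 without S100a9). All 7 erythroid markers were above 0, with a median of 0.42 and summed levels of 151 and 198 FPKM. No marker of any of these lists was at 0 counts in either library. The most abundant markers were Lck for T cells (27.9 and 25.2 FPKM), Lyz2 for macrophages (88.8 and 37.4), S100a9 for neutrophils (196 and 266) and Hbb-bs for erythroid cells (49.2 and 62.3), beside Cd79a for B cells at 835 in each library. The part of the other cells in the receptors' values was not tested.

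**Figure D4:**
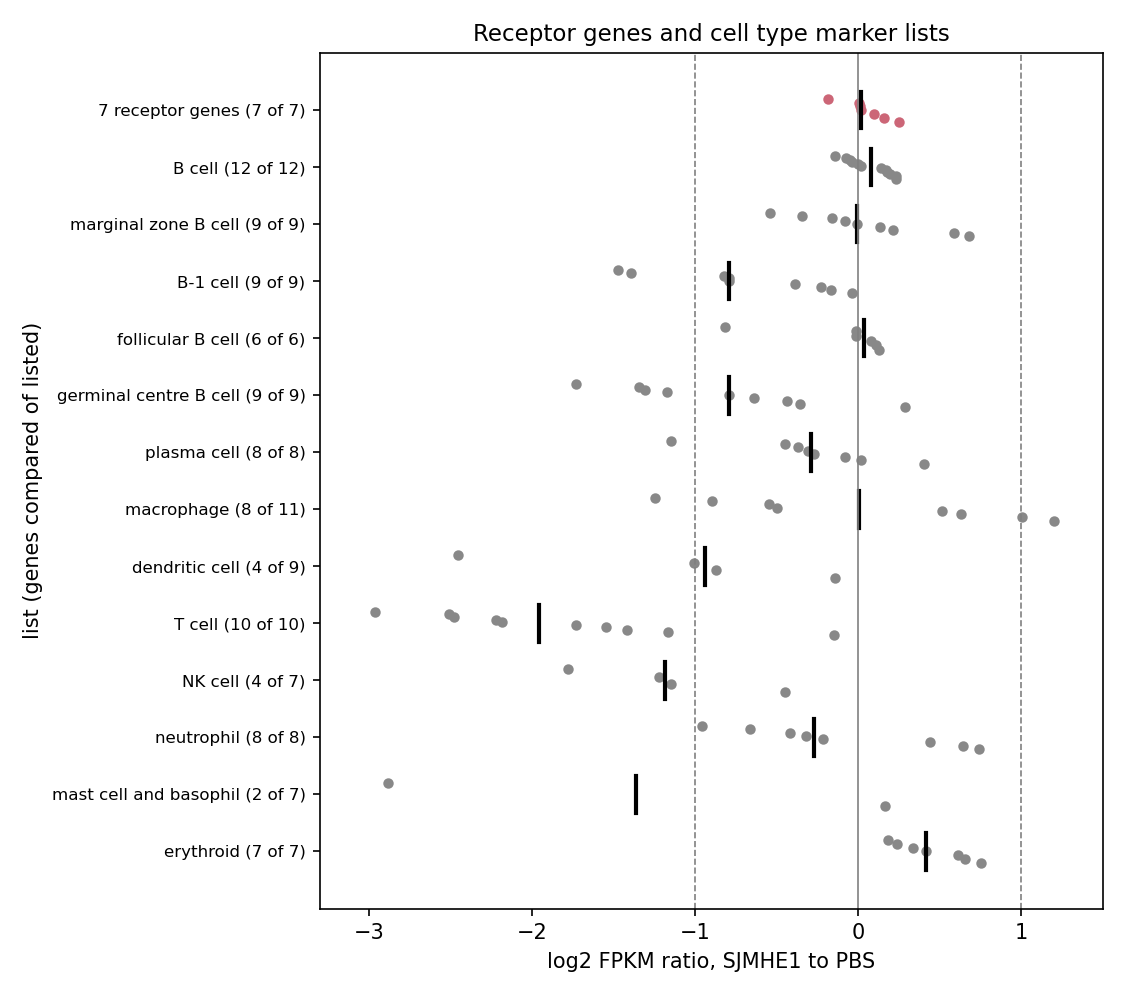
The log2 FPKM ratio, SJMHE1 to PBS, of the 7 receptor genes (red) and of the markers of each cell type list (grey) that passed the filter on low values, with a black bar at the list's median and dashed lines at 2-fold. The receptors lie near the B cell and follicular lists (medians 0.079 and 0.035), while the T cell list has a median of -1.96 and the erythroid list one of 0.42.

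All 7 genes had a promoter sequence in RefSeq (GRCm38.p6), in 8 windows since Siglecg has 2. The 250 bases before the annotated start were searched on both strands for 4 motifs of factors known in B cells or general transcription, chosen after the data were examined. GAGGAA, the core bound by the B cell and myeloid factor PU.1 and its relatives, was found in 5 of the 8 windows, and 23.3% of all 32851 windows hold it. Each of these 5 belongs to a different gene, and each holds the motif on the strand opposite to the gene, where it reads TTCCTC along the gene. Fcrl1 also holds it on its own strand, 93 bases before the start, and Siglecg has a further match on the opposite strand, at 241. Only the match nearest to the start is shown for each gene. These 5 stretches are shown because they are what the promoters of genes on 4 chromosomes had in common, with the motif in capitals, and 30 bases each along the gene's own strand.
Cd72 (chr4:43454656-43454685, minus strand, first motif base 47 before the start): ccaaagacctacTTCCTCttttatgacttg
Fcrla (chr1:170927603-170927632, minus strand, 37 before the start): agttaggtttatTTCCTCttttctaatttg
Fcmr (chr1:130865729-130865758, plus strand, 36 before the start, inside a GENCODE exon): acagattatcatTTCCTCattttaagtcct
Fcrl1 (chr3:87376357-87376386, plus strand, 13 before the start): taacttccgaccacgacTTCCTCaaacctc
Siglecg (chr7:43408015-43408044, plus strand, 212 before the start): tcccccctcttcTTCCTCctcttctaagtg
In Cd72, Fcrla, Fcmr and Fcrl1 the motif began within 50 bases of the start. Fcgr2b and Fcrl5 did not have these letters in their windows. The octamer ATGCAAAT (1.6% of all windows) and the EBF palindrome (0.779%) were in none of the 8, and TATAAA (12.4%) was in those of Fcrl1 and Fcrl5. A match of letters is not a binding site, and none of these data measured binding.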

How the data were processed

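Total RNA of sorted splenic B cells was depleted of rRNA and sequenced as 1 pooled library per group. The authors deposited raw counts per gene, and FPKM values with 2 decimals, in 1 table. The submitters' processing notes name HISAT2, StringTie and the build mm10. The versions, the counting tool and the use of strand are not given in the sources used here. Gene coordinates are those of the table and of GENCODE M21 on GRCm38. The reference genome is of another strain than the BALB/c mice.

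Of the table's value columns, 4 carry the name of the PBS or SJMHE1 library. Another 2 per-sample columns carry a name that fits no sample and were not used, so the planned comparisons with the Control group were not made. The table's gene names were matched exactly to the 7 symbols.

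The measure was the log2 ratio of SJMHE1 over PBS in the deposited FPKM values, with no pseudocount, for genes that reached 1 FPKM in either library and were above 0 in each. No test across replicates could be fitted to 1 library a group. Intervals are exact Clopper-Pearson intervals of the counts (ratios) and exact Poisson intervals (levels) at the 95% level, and they cover counting error only. Sequence shared with other genes was searched in stretches of 50 bases over all GENCODE M21 transcripts. The planned description of the proteins was not run. The alternatives were pseudocounts of 0.1 and 1, other filters, rescaled or centred FPKM, counts scaled to a sum of 1000000, by TMM or by DESeq2 size factors, and protein-coding genes alone, with 4 alternatives added after the data were examined.

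The genes named are all 7 receptors and genes of each related list. Of the latter, those that passed the filter and were past 2-fold or had the highest or lowest ratio were named, with the most abundant gene. Lyn, Inpp5d, Fcrlb, Ighm, Ighg2b, Ighg2c, Ighg3, S1pr3, Plac8, Zbtb46 and the overlapping and neighbouring genes were named after their values were seen. The 7 genes and the lists were chosen with earlier results of these data known. Some genes of the lists are not reported here by name. The calculations were tested on simulated data. The tools were R 4.3.3 (edgeR 4.0.16 and DESeq2 1.42.0, for scaling factors alone) and Python 3.11.15 (matplotlib 3.10.9, scipy 1.17.1, pandas 2.3.3, numpy 2.4.6).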

Additional observations from a re-analysis of the deposited data

How the results depend on the processing

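The count of 0 receptor genes past the fold was the same under all alternatives run. The median log2 ratio of the 7 genes (0.018) was 0.10 after rescaling each library to equal FPKM sums and -0.061 after centring on the B cell list. The first of these moved the median of all genes compared from -0.013 to 0.070. Over all genes, 302 were past 2-fold upwards and 444 downwards, 1367 and 2018 without a filter, and 52 and 93 with an FPKM of at least 5. Filters cannot move the ratio of a single gene. The ratios of single receptor genes were recomputed with pseudocounts, on other scales and, for Fcgr2b, with the counts of Fcgr3 added. Of these 64 ratios, 37 stayed inside the counting interval and 27 did not. All 27 came from changes of scale, since the pseudocounts and the added counts moved no ratio out of its interval. The interval was wholly above 0 for 2 to 6 of the 7 genes, depending on the scale, and wholly below 0 for Fcrl5 on each scale run. At FPKM of at least 0.1, the median of the macrophage list went from 0.0091 to -0.50. No paired analysis was possible because there is a single library per group, and no library could be left out for the same reason. The comparisons with the Control group were not run. The depth of both libraries limits the weakly expressed relatives, such as Fcgr4 and Fcrlb, more than the 7 genes, whose lowest count was 2642.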
